A study of Homo sapiens with 3 samples.

Results

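The enterocyte brush border and digestion genes are 38 genes that encode the microvillus skeleton, the digestive enzymes and nutrient transporters of the apical membrane, the guanylin system, and the carbonic anhydrases and aquaporins of absorptive cells. Their probe sets were taken from the array by gene symbol, where a probe set named a single gene, which gave 79 of the array's 49395 probe sets. These covered 37 of the 38 genes, among 18132 genes with such a probe set. PDZK1, an apical scaffold protein, shared its probe sets with a pseudogene in the annotation and was not analysed here. The cells were Caco-2, an established human colorectal cancer line that can form a polarised, enterocyte-like layer. All 3 arrays held total RNA of cells transduced with a lentivirus that expressed a short hairpin RNA. In the control (n = 1) this was the non-target hairpin shCTRL, and in the knockdown lines (n = 2) it was shOCC-1-1 (line 1) or shOCC-1-2 (line 2), each against the transcript OCC-1. Every culture was grown with 20% fetal bovine serum, selected with puromycin at 1 µg/ml for 5 days and kept without the drug for 24 hours. The density and differentiation of the cells, and whether a line was a pool or a clone, are not given in the sources used here.

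Enterocytes carry a dense carpet of microvilli, the brush border, in which villin, espin and plastin bundle actin, ezrin ties it to the membrane, and protocadherins link the tips of neighbouring microvilli. Disaccharidases, peptidases and alkaline phosphatase are anchored on this surface, where they finish digestion beside the transporters that take up sugars, amino acids, peptides and bile acids. Guanylin and uroguanylin bind the apical receptor guanylate cyclase C, whose cyclic GMP drives chloride and bicarbonate secretion. Caco-2 cells are widely used as a model because these genes can rise in them as the layer matures.

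The targeted transcript OCC-1 (symbol C12orf75) was at 42.5% of control in line 1 and 32.5% in line 2. Median intensity over all probe sets outside the array's controls was 186 in the control against 182 in line 1 and 184 in line 2. Of 11 colorectal epithelial markers with a probe set, 9 passed the intensity filter, which was a mean log2 intensity of 7.52 (intensity 184), the median over all probe sets. KRT18, a simple epithelial keratin, read 10002, 9553 and 10026 on the control, line 1 and line 2 arrays, and CDH17, an intestinal cadherin, 3387, 3169 and 2961. CEACAM5 and LGALS4, both typical of colon epithelium, lay below the filter on every array, at 163 and 156 in the control, and KRT20, a marker of mature colonocytes, lay at it with 182 to 186. EPCAM and CDH1, which encode epithelial adhesion proteins, were higher in both lines, at 143% and 150.4% and at 132% and 129% of control. Of the markers of other cell types, 1 of 5 endothelial, 5 of 9 fibroblast and 1 of 6 leukocyte genes with a probe set passed the filter, with summed intensities of 213, 1399 and 199 in the control and 212 to 216, 1296 to 1416 and 161 to 215 in the 2 lines.

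Among the 21 members that passed the filter, 3 were lower and 0 were higher in the knockdown lines by limma at an adjusted p of 0.05. One of the 3, LCT, passed the filter only through the control array, where it is high. At an unadjusted p of 0.05, 7 were lower and 2 higher, where 12.9% and 17.9% of all genes tested were. In this bulk RNA, fewer cells of a type and less RNA per cell cannot be told apart. By adjusted p, 3.06% of all 11329 genes tested were called lower and 9.63% higher. GUCA2A was lower by at least 1.5-fold in both lines, the only one of the 21 to reach that size in both, where 0.159% of all genes did so. None was 1.5-fold higher in both lines, against 1.36% of all genes. LCT, at 1.44-fold and 1.47-fold lower, lay just outside the 1.5-fold bound, and CA2 followed at 1.24-fold and 1.23-fold. The median log2 difference from control of the 21 members was -0.11 in line 1 and -0.06 in line 2, beside -0.03 and -0.02 over all genes tested. Of the 21 members 11 were below control in both lines and 5 above it in both, beside 45.7% and 36.5% of all genes tested, and 5 were mixed. For the 16 members below the filter the medians were -0.12 and -0.01, beside -0.07 and -0.03 for all genes below it. With quantile normalization, 59.2% of all genes called by limma were higher, in place of 75.9%. The 2 lines were compared with the same single control array, so their differences are not independent of each other. Nothing in the labels says that the lines repeat a single culture. The p-values rest on the spread between 2 arrays with different hairpins, moderated by the spread over all genes tested, and not on repeated cultures. They also take the lone control array to vary as these 2 do.

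**Figure D1:**
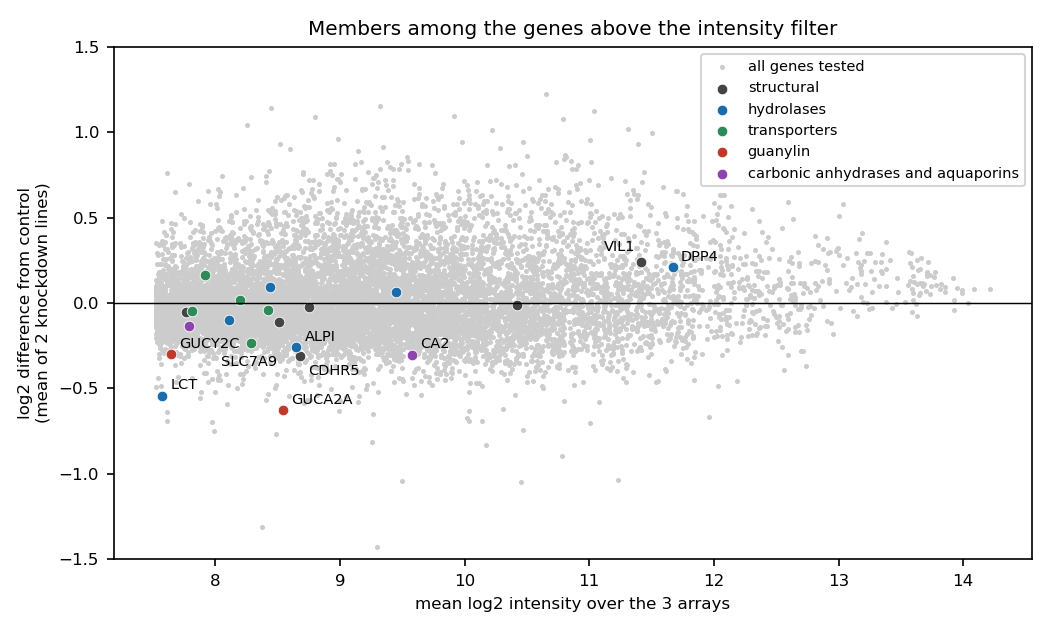
Mean log2 difference of the 2 knockdown lines from control (vertical axis) against the mean log2 intensity over the 3 arrays (horizontal axis) for the 11329 genes tested (grey) and the 21 members above the intensity filter (coloured by subgroup). GUCA2A at -0.63 and LCT at -0.54 are the lowest members, and VIL1 at 0.24 and DPP4 at 0.21 the highest.

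Dim and GC-rich probe sets have to be read beside the array's own background. The 23 background control probe sets, which the array design names as background, are graded by the number of G or C bases in a probe. In the 12 with 14 or more such bases, whose control intensities ran from 104 to 2307, the log2 difference from control was -0.37 to -0.09 in line 1 and -0.23 to -0.09 in line 2. In the 11 with 13 or fewer it was -0.05 to 0.06 and -0.05 to 0.04. The control intensities of 33 of the 37 members lay within the same range, and the part of this background in their differences was not tested. GUCA2A (-0.63 in both lines) and LCT (-0.53 and -0.56) were lower by more than any background control probe set. In line 1 ALPI (-0.22), SLC7A9 (-0.20), CDHR5 (-0.20) and GUCY2C (-0.21) lay within the range of the GC-rich background probe sets. In line 2 these genes lay beyond it, at -0.30, -0.27, -0.41 and -0.39.

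The guanylin system held the largest difference among the 21 members. GUCA2A encodes guanylin, a peptide hormone secreted into the gut lumen, and its single probe set read 498 in the control against 323 in line 1 and 322 in line 2. Both knockdown arrays stood below the control, at 64.8% and 64.7% of it, and close to each other. The log2 difference was -0.63 ± 0.0016 (SD, n = 2 lines), with a limma adjusted p of 0.0056. limma called it lower under each alternative that kept it in the test, its fold stayed below 2, and the filter at the 75th percentile left it out. GUCA2B, the neighbouring gene on chromosome 1 with 0 RefSeq genes between them, encodes uroguanylin, which acts on the same receptor. Its intensities of 148, 146 and 156 were below the filter and the lines stood on both sides of control. GUCY2C, the receptor guanylate cyclase C, read 230 in the control against 199 in line 1 and 175 in line 2. Both lines were below control, at 86.7% and 76.4%, with a log2 difference of -0.30 ± 0.13 (SD, n = 2 lines) that missed the limma threshold (adjusted p = 0.086). Without the intensity filter the same difference had an adjusted p of 0.036.

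The upstream sequences of both guanylin genes and of the sucrase-isomaltase gene SI are shown because the first was lower in both lines and the others were not. Each is the run of 250 bases before the RefSeq start of the gene, taken from RefSeq on GRCh38.p14 and read towards the gene. They lie at chr1:42164746-42164995 on the minus strand for GUCA2A, at chr1:42153160-42153409 on the plus strand for GUCA2B, and at chr3:165078497-165078746 on the minus strand for SI. Capitals mark, on either strand, short forms of the sequences bound by intestinal transcription factors: TTTAT for the CDX family, GATAA for the GATA family, GTTAAT for HNF1 and CAAAGTCCA for HNF4.
GUCA2A: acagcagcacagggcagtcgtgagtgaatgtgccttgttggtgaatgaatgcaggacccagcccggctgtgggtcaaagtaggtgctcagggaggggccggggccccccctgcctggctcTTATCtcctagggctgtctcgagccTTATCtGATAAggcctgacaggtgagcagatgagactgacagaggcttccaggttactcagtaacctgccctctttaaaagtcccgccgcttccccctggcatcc
GUCA2B: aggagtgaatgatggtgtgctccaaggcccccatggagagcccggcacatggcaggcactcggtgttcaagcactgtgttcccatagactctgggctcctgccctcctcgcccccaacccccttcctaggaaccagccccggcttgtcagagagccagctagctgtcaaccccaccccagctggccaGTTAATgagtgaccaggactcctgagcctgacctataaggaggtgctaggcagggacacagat
SI: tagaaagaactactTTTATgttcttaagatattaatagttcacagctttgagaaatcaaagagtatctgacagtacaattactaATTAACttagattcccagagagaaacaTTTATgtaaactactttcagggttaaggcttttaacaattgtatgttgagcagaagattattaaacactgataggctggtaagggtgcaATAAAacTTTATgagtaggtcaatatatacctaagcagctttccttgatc
GUCA2A held 3 GATAA matches and 0 of TTTAT. GUCA2B held 1 GTTAAT match, and SI held 4 of TTTAT and 1 of GTTAAT. Matches of TTTAT and GATAA can overlap. Of the 29 members with an upstream sequence in the table, 13 held TTTAT (44.8%, beside 33.7% of 27305 upstream sequences of the same length), 8 held GATAA (27.6%, beside 21.0%) and 8 held GTTAAT (27.6%, beside 6.22%). CAAAGTCCA was found in 1 member, TREH (3.45%, beside 0.29%). These are letter matches and not measured binding. LCT and CA2 had no entry in this table.

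Among the 12 digestive enzymes, 6 passed the filter and LCT was the only one limma called with 1 probe set per gene. Over all genes tested, 3.06% were called lower and 9.63% higher. At an unadjusted p of 0.05, 2 of the 6 were lower and 1 higher (12.9% and 17.9% of all genes). LCT encodes lactase, which splits milk sugar, and read 245 in the control against 170 in line 1 and 166 in line 2. The knockdown arrays were at 69.4% and 67.9% of control and differed little from each other. The log2 difference was -0.54 ± 0.02 (SD, n = 2 lines; limma adjusted p = 0.0083). LCT passed the filter on its mean over the arrays, while both knockdown values lay below it. ALPI, the intestinal alkaline phosphatase, read 453, 389 and 368 in the control, line 1 and line 2. Its difference of -0.26 ± 0.06 (SD, n = 2 lines) missed the limma threshold with an adjusted p of 0.074, and its second probe set, below the filter, read 172, 155 and 160. With quantile normalization or without the filter ALPI was called lower. SI, which splits sucrose and isomaltose, read 333 in the control against 345 in line 1 and 366 in line 2, so that both knockdown arrays were slightly above control (limma adjusted p = 0.46). ANPEP, aminopeptidase N, stood at 97.6% and 89.7% of control, and MEP1A, the alpha subunit of the protease meprin, at 107% and 102%. Neither passed the test.

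DPP4, a serine peptidase that trims proline-containing peptides, was read by a pair of probe sets that went opposite ways. The brighter read 2958 in the control against 3503 in line 1 and 3336 in line 2, a log2 difference of 0.21 ± 0.05 (SD, n = 2 lines; limma adjusted p = 0.12). The other read 1404, 1171 and 1026, a log2 difference of -0.36 ± 0.13 (SD, n = 2 lines), and was called lower when every probe set was tested (limma adjusted p = 0.037). The direction for DPP4 thus depends on the probe set, and the mean of both was -0.07. The remaining 6 enzymes lay below the filter. MGAM, maltase-glucoamylase, stood at 108% and 106% of control and ENPEP, aminopeptidase A, at 112% and 115%. MEP1B (the meprin beta subunit), ACE (angiotensin-converting enzyme), TMPRSS15 (enteropeptidase) and TREH (trehalase) were at 90.0% to 97.3% of control in line 1 and at 100.4% to 107% in line 2.

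**Figure D2:**
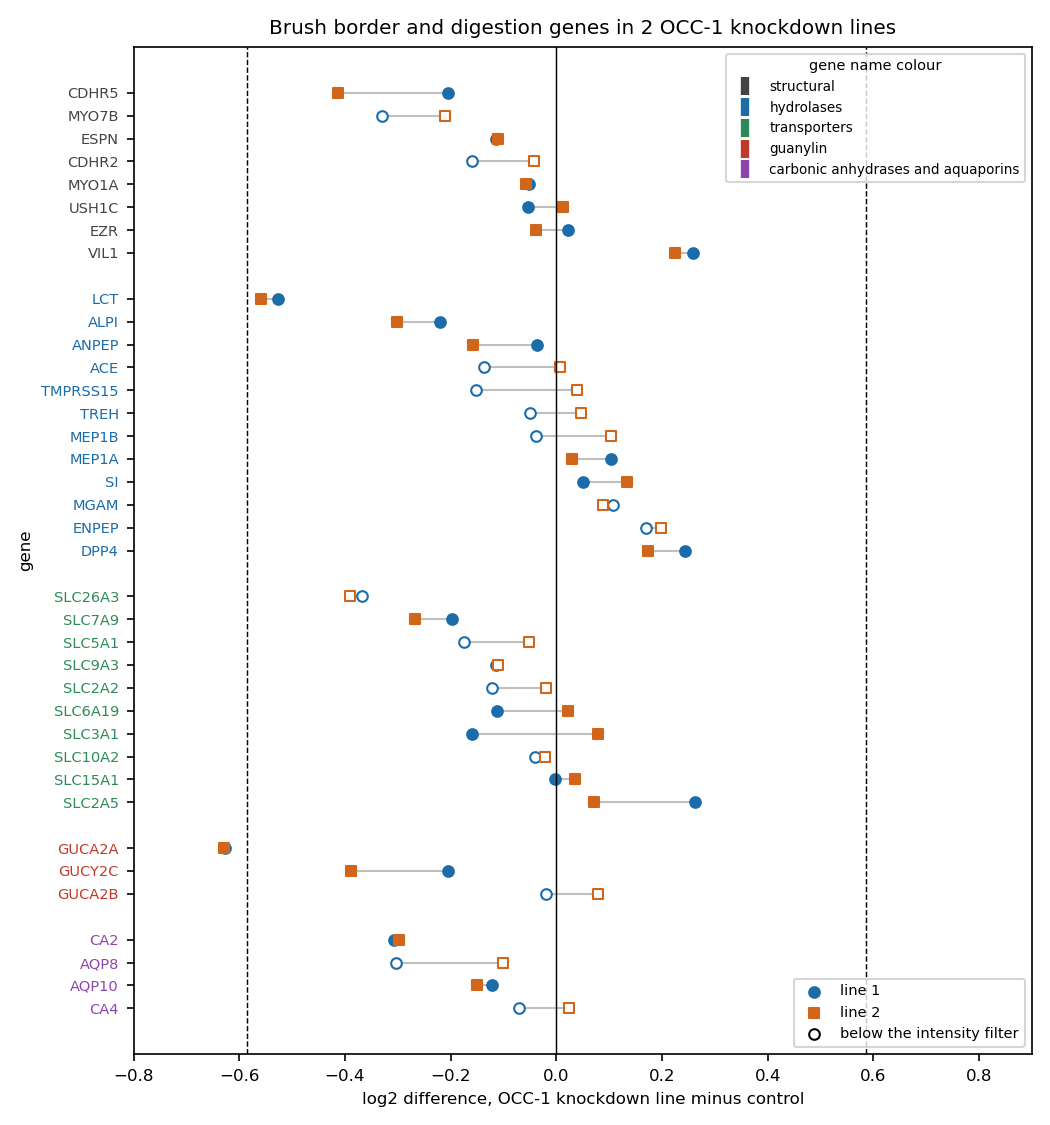
Log2 difference from control in line 1 (circles) and line 2 (squares) for the 37 members with a probe set, grouped by role, with open symbols for genes below the intensity filter and dashed lines at 1.5-fold. GUCA2A lies beyond the lower line in both lines, LCT just inside it, and no member lies beyond the upper one.

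The structural proteins showed no call in the fit with 1 probe set per gene, with 1 lower and 1 higher at an unadjusted p of 0.05 (12.9% and 17.9% of all genes) and 6 of 8 measured genes above the filter. VIL1 encodes villin, the actin bundler that defines the brush border, and read 2447 in the control against 2926 in line 1 and 2857 in line 2. Both lines were above control, at 120% and 117%, and the log2 difference of 0.24 ± 0.02 (SD, n = 2 lines) missed the threshold (limma adjusted p = 0.079). With an intensity trend in the variance it had an adjusted p of 0.045, and a further VIL1 probe set had a difference of nearly the same size (330, 390 and 384). The remaining VIL1 probe set had a smaller mean difference, 0.06. EZR, which encodes ezrin, had 5 probe sets above the filter with mean differences from -0.13 to 0.12. ESPN, the actin bundler espin, read 384, 355 and 356, and MYO1A, a membrane-tethering myosin, 224, 216 and 215, so that both lay at 92.4% to 96.5% of control.

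A protocadherin complex joins the microvillus tips. CDHR5, one of its protocadherins, read 473 in the control against 411 in line 1 and 356 in line 2 on its brightest probe set, a log2 difference of -0.31 ± 0.15 (SD, n = 2 lines; limma adjusted p = 0.090). It was called lower when its probe sets were averaged (0.047), after quantile normalization (0.046) and without the filter (0.034). Its other probe sets were closer between the lines. They read 411, 342 and 313, and 398, 331 and 316, and both were called lower in the fit on all probe sets, with limma adjusted p of 0.034 and 0.037. All 3 CDHR5 probe sets were thus below control in both lines, at 75.1% to 86.8% of it. MYO7B, the motor of the complex, was below the filter at 170, 135 and 146, and was called lower in the fit without it (limma adjusted p = 0.042). Its differences of -0.33 and -0.21 lay within the range of the GC-rich background probe sets in both lines. CALML4, a light chain of that motor and not one of the 38 genes, read 2325, 1636 and 1490, a log2 difference of -0.57 ± 0.10 (SD, n = 2 lines; limma adjusted p = 0.010). The CALML4 call was lost when all of its probe sets were averaged, with a log2 difference of -0.05 (limma adjusted p = 0.64). That average took in probe sets below the filter, and CALML4 had no other probe set above it. CDHR2, the partner protocadherin, stood below the filter at 89.6% and 97.1% of control. USH1C, the scaffold harmonin, read 436, 420 and 440 on its brighter probe set, and the scaffold ANKS4B lay below the filter at 164, 153 and 163.

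**Figure D3:**
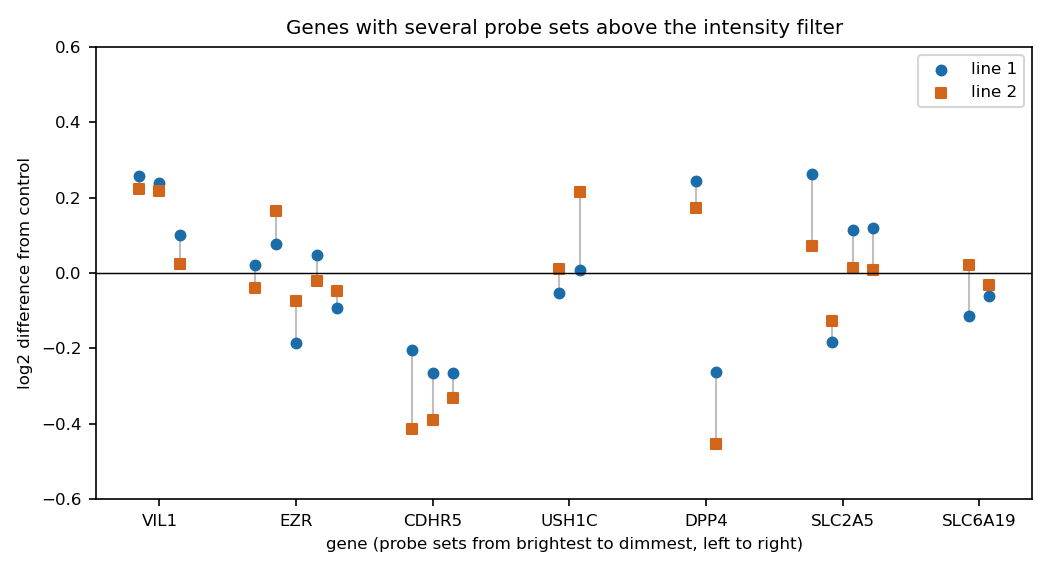
Log2 difference from control in line 1 (circles) and line 2 (squares) for each probe set above the filter of the 7 members that have several, ordered from the brightest to the dimmest within a gene. All 3 CDHR5 probe sets lie below 0 and all 3 VIL1 probe sets above it, while those of DPP4 lie on opposite sides.

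When every probe set was tested, 6 of the 35 member probe sets above the filter were lower and 0 higher, where 3.96% and 11.4% of all 24645 probe sets were called lower and higher. The 6 belonged to 5 genes, GUCA2A, LCT, CA2, CDHR5 and DPP4. By size, GUCA2A's was the only one of the 35 lower in both lines and 0 were higher, where 0.101% and 1.43% of all probe sets were. Among 21 members with several probe sets, 4 had probe sets that were lower in both lines and others that were higher in both, namely EZR, DPP4, SLC2A2 and SLC2A5. For 16 members, including GUCA2A, LCT and CA2, a single probe set gave the only reading.

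Of the 10 transporters, 5 passed the filter and 0 were called by limma, with 1 lower and 0 higher at an unadjusted p of 0.05 (12.9% and 17.9% of all genes). SLC7A9, the light subunit of the cystine and dibasic amino acid transporter, read 347 in the control against 302 in line 1 and 288 in line 2, a log2 difference of -0.23 ± 0.05 (SD, n = 2 lines; limma adjusted p = 0.094). SLC3A1, the heavy subunit of the same transporter, read 349, 312 and 369, with the lines on both sides of control. SLC2A5, the fructose transporter GLUT5, read 224, 269 and 236 on its brightest probe set and 233, 205 and 213 on the next, so that the sign depended on the probe set. SLC6A19, which takes up neutral amino acids, read 230, 213 and 234, and SLC15A1, the peptide transporter PEPT1, read 292, 291 and 299. SLC26A3, the chloride-bicarbonate exchanger of the colon, was below the filter at 180, 140 and 138, or 77.5% and 76.3% of control. It was called lower in the fit without the filter (limma adjusted p = 0.0040). Its difference was within the range of the GC-rich background probe sets in line 1 (-0.37) and beyond it in line 2 (-0.39). SLC5A1 (the sodium-glucose transporter SGLT1), SLC2A2 (the glucose transporter GLUT2), SLC9A3 (the sodium-proton exchanger NHE3) and SLC10A2 (the bile acid transporter ASBT) were also below the filter, at 88.6% to 98.6% of control.

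The carbonic anhydrases and aquaporins held the remaining gene called. CA2, the abundant cytosolic carbonic anhydrase of enterocytes, read 880 in the control against 711 in line 1 and 716 in line 2. Both lines were at 80.8% and 81.3% of control, a log2 difference of -0.30 ± 0.0066 (SD, n = 2 lines; limma adjusted p = 0.042). This difference was within the range of the background control probe sets in line 1 and beyond it in line 2. AQP10, an aquaglyceroporin of the small intestine, read 236, 217 and 212 (limma adjusted p = 0.26). AQP8, the water channel of the colon, was below the filter at 81.1% and 93.2% of control, and CA4, the membrane-bound carbonic anhydrase, at 95.2% and 102%.

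**Figure D4:**
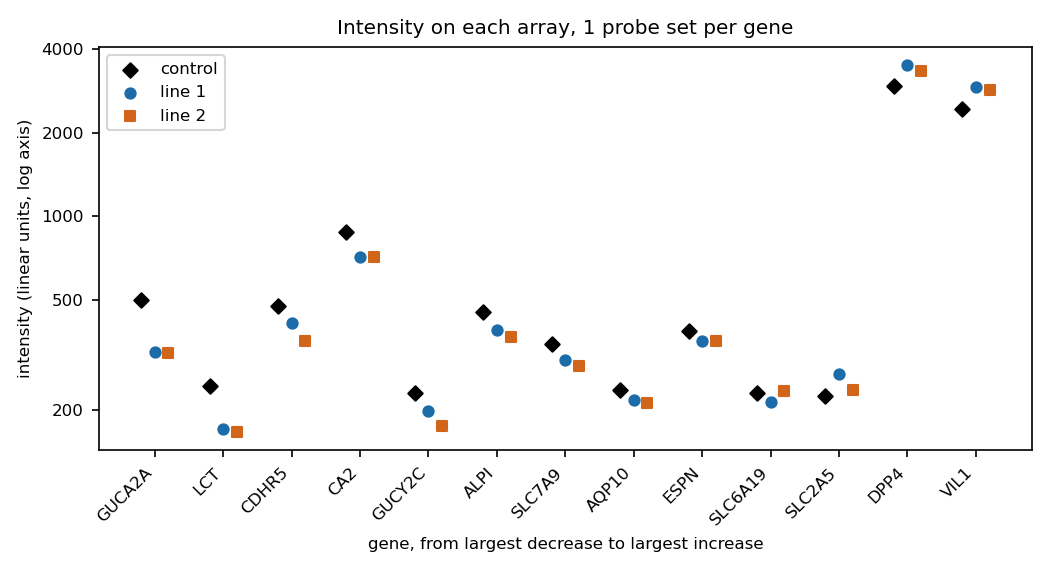
Intensity on a log axis of the 13 members given in full, in the control (diamonds), line 1 (circles) and line 2 (squares), 1 probe set per gene, ordered by their difference. Of the 3 genes called by limma, GUCA2A, LCT and CA2 have both knockdown values below control and close together.

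Without the intensity filter all 37 members could be tested, and 8 were lower and 0 higher, where 3.93% of all 18132 genes were called lower and 8.25% higher. MYO7B, CDHR5, ALPI, SLC26A3 and GUCY2C joined the 3 genes named above. With only genes above the 75th percentile, 6 members were left, CA2 alone was called, and the median of the members' differences was 0.03.

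Genes from further lists, drawn up beside the members, did not move in a single direction. Of 20 further microvillus and apical scaffold genes above the filter, 3 were higher and 1 lower by limma. Over all genes tested, 9.63% were called higher and 3.06% lower. PROM1, the microvillus membrane protein prominin, read 1395, 1978 and 2055 (limma adjusted p = 0.0092), while the unconventional myosin MYO6 was 1.21-fold and 1.27-fold higher in lines 1 and 2. Another such myosin, MYO1D, was 1.40-fold and 1.22-fold higher. The lower one was CALML4. Of 8 further enzymes above the filter limma called 2 higher, the peptidases NAALAD2 (1080, 1568 and 1579) and CPVL (1042, 1389 and 1418), and 0 lower. Of these 8, called or not, 6 were below control in both lines and 2 above it in both. For the 20 microvillus genes these counts were 13 and 5, and over all genes tested the shares were 45.7% and 36.5%.

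Of 17 further absorption transporters 3 were higher and 3 lower, where 9.63% and 3.06% of all genes tested were. SLC51B, a subunit of the basolateral bile acid exporter, read 519 in the control against 396 in line 1 and 361 in line 2 (limma adjusted p = 0.018), and its other probe set had differences of -0.36 and -0.52. SLC1A5, a neutral amino acid exchanger, read 2348, 1658 and 1709 (limma adjusted p = 0.011), and its other 2 probe sets were also lower in both lines. SLC4A2, an anion exchanger, was at 82.3% and 80.0% of control. The amino acid transporters SLC38A2 and SLC36A1 were higher, the former 1.35-fold and 1.37-fold in lines 1 and 2. The latter was 1.25-fold and 1.24-fold higher. SLC26A2, a sulfate transporter, was 1.23-fold and 1.22-fold higher on its brightest probe set. Its 3 other probe sets above the filter, however, had medians of -0.16 and -0.28. The gene was not called after quantile or cyclic loess normalization.

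Of 6 further genes of cyclic GMP and cyclic AMP signalling above the filter, 2 were higher and 0 lower. The shares over all genes tested were 9.63% and 3.06%. ABCC4, an efflux pump that can export cyclic nucleotides, read 588 in the control against 993 in line 1 and 1065 in line 2, or 1.69-fold and 1.81-fold higher (limma adjusted p = 0.0049). Its other 2 probe sets above the filter had medians of -0.02 and 0.03, and the call was lost when all of its probe sets were averaged. PDE4D, a cyclic AMP phosphodiesterase, was 1.23-fold and 1.24-fold higher. CFTR, the chloride channel that guanylin's pathway opens, read 981, 1105 and 1037 and was not called (limma adjusted p = 0.33). Of 6 further carbonic anhydrases and aquaporins limma called 0, with 2 higher at an unadjusted p of 0.05 (17.9% of all genes) and the smallest p for CA13 (582, 698 and 775; limma adjusted p = 0.052) and AQP11 (1281, 1531 and 1567; 0.056).

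Of 14 transcription factors of the gut epithelium above the filter, 2 were higher and 1 lower by limma. The shares over all genes tested were 9.63% and 3.06%. GATA6 (1469, 2323 and 2517) and TCF7L2 (946, 1551 and 1482), the latter a partner of beta-catenin, were both more than 1.5-fold higher in both lines. Over all genes tested, 1.36% were higher by that size in both lines. The 4 other TCF7L2 probe sets above the filter had smaller differences, with medians of 0.18 and 0.11. ELF3, an epithelial ETS factor, was lower at 623, 496 and 502 (limma adjusted p = 0.035). CDX2, the master factor of intestinal identity, read 1258, 1281 and 1223 and its difference did not pass the test (limma adjusted p = 0.97), nor did those of CDX1, GATA4 and KLF5. Of 5 goblet cell markers above the filter, 4 were below control in both lines and 1, ZG16, above it in both. Over all genes tested these shares were 45.7% and 36.5%. Among the 5, SPINK4 alone was called lower by limma (305, 215 and 228). The 1 enteroendocrine marker above the filter, CHGB, was called higher (168, 220 and 220), having passed the filter only through the knockdown arrays. Averaging all probe sets of a gene takes in those below the filter. It ended the calls of PROM1, MYO6, SLC38A2, SLC36A1, SLC4A2, SLC26A2, ELF3, TCF7L2 and CDH1, as it did those of CALML4 and ABCC4. It also took PDE4D and CHGB below the filter. Of these genes, PROM1, SLC38A2, CDH1, CALML4, PDE4D and CHGB had no other probe set above the filter. The calls of MYO1D, NAALAD2, CPVL, SLC1A5, SLC51B, GATA6, EPCAM and SPINK4 held, with limma adjusted p from 0.0057 for GATA6 to 0.029 for MYO1D.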

How the data were processed

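The authors deposited 1 linear intensity per probe set and array, from 50.1 to 19619. RMA is listed in the submitters' processing notes, with no version, and the scaling and background steps are not given in the sources used here. Intensities were converted to log2 and not normalized further. Gene names came from the platform annotation, checked by gene identifier against RefSeq (GRCh38.p14). The main fit used, per gene, the probe set with the highest mean log2, if that mean reached 7.52. A further fit used every probe set above the same bound.

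limma 3.58.1 in R 4.3.3 (lmFit, eBayes; two-sided; Benjamini-Hochberg adjustment over all genes or probe sets tested) set the 2 knockdown arrays against the lone control, which is taken to vary as they do. The fit had 1 residual degree of freedom; moderation brought this to 6.96 (8.70 for probe sets). The procedure was tested on simulated data. The size rule asked for 1.5-fold or more from control in both lines, on the same side. The members, the further lists and the tests were chosen with earlier results of these data known. Each member called in either fit, and the 3 with the smallest p per subgroup, are given in full. Further lists are given by their called genes or the 2 with the smallest p. Genes named beyond this, ANKS4B, CFTR, CDX1, CDX2, GATA4, KLF5, KRT18, CDH17, CEACAM5, LGALS4 and KRT20, were picked after their values were seen.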

Additional observations from a re-analysis of the deposited data

How the results depend on the processing

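GUCA2A, LCT and CA2 were called lower by limma under every alternative that kept them in the test, with adjusted p-values from 6.7e-05 to 0.0056, 0.00025 to 0.0083 and 0.018 to 0.042. Members called lower numbered 8 without the intensity filter, 5 after quantile normalization, 4 when probe sets were averaged and 1 with the filter at the 75th percentile, in place of 3, where 3.93%, 6.97%, 3.33% and 6.13% of all genes were called lower, in place of 3.06%. In the fit on all probe sets, 10 member probe sets (8 genes) were lower without the filter, in place of 6 (5 genes). After quantile normalization 8 (6 genes) were lower, and after cyclic loess 7 (5 genes). For all probe sets the main share was 3.96%, and those under the alternatives are not given here. In the gene fit the 3 alternatives called 3.93%, 6.97% and 4.16% of all genes lower, in place of 3.06%. VIL1 was the 1 member called higher with an intensity trend in the variance, and the 1 member probe set called higher with that trend and after cyclic loess. By size, 2 members were lower at 1.3-fold, 0 at 2-fold and 0 with the filter at the 75th percentile, in place of 1. The main size rule called 0.159% of all genes lower, and the shares under these alternatives are not given here. The median over members was -0.05 for the mean of both lines, -0.12 when all probe sets of a gene were averaged, 0.029 with the filter at the 75th percentile, and between -0.11 and -0.058 when either knockdown array was left out. Leaving out either array kept 1 member lower and 0 higher by size. The signs that turned were that of DPP4, at -0.074 when its probe sets were averaged, and that of SLC6A19, at 0.022 without line 1. The 2 probe sets of DPP4 had opposite signs (0.21 and -0.36), as did the 2 lines for SLC6A19 (-0.11 and 0.02). Why they differed was not tested. Normexp background correction moved none of the counts. No paired analysis was possible because there is 1 control array. Remaining background in the intensities limits what dim probe sets can show.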
